A study of Mus musculus with 20 samples.

Results

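The comparison described here sets the testes of 5 Xpc-/- mice against those of 5 wild type (Wt) mice, all exposed to benzo(a)pyrene (B[a]P), and covers all 20868 probes of the array. The 10 exposed mice were chosen by their labels and are 10 of the 20 mice of the study. All mice were males of the strain C57BL/6. The exposed mice of both genotypes received B[a]P once, by gavage, at 13 mg per kg of body weight, and whole testis was taken at day 4. The other 10 mice, 5 Wt and 5 Xpc-/- controls, received only sunflower oil, the solvent, and are used here as the comparator without B[a]P. Every array also carried the same reference, RNA of 3 unexposed Wt mice pooled together. The labels give no ages and do not say which part of Xpc was removed. The study's discussion names Ola129 as a possible origin of chromatin next to the mutated gene, and the extent of such chromatin was not measured. In whole testis, fewer cells of a type and less RNA per cell cannot be told apart.

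B[a]P belongs to the polycyclic aromatic hydrocarbons, which form when organic matter burns. Cells sense it through the aryl hydrocarbon receptor, which turns on cytochrome P450 enzymes, and these convert it to a diol epoxide that binds guanine in DNA. The XPC protein finds such bulky adducts in the genome and recruits TFIIH and the incision nucleases of nucleotide excision repair, whereas adducts in transcribed strands are found through the stalled RNA polymerase. Testis holds mitotic spermatogonia, meiotic spermatocytes and postmeiotic spermatids, with Sertoli, Leydig and peritubular myoid cells around them.

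After B[a]P, the testes of Xpc-/- and Wt mice had almost the same transcript levels. The difference between genotypes, taken throughout as Xpc-/- minus Wt on the log2 scale, had a median of -0.003 and an SD of 0.127 over all probes. It lay within 0.3 in 98.1% of probes, and the 99th percentile of its size was 0.34. A typical probe was measured with a 95% interval of 0.25 to either side. In the fit across all probes (limma, Benjamini-Hochberg adjustment, threshold 0.05) 1 probe of 20868 differed, which is 0.00479%, and it belonged to Snrnp27, a protein of the U4/U6.U5 tri-snRNP of the spliceosome. Without adjustment, 904 probes (4.33%) had a limma p under 0.05, 463 of them higher in Xpc-/- mice (2.22%) and 441 lower (2.11%). The values of the 5 and 5 mice did not overlap in 156 probes (0.748%), 85 higher (0.407%) and 71 lower (0.34%).

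Xpc-/- B[a]P 1 and 2 stood apart from the other exposed arrays. On the principal components of the exposed arrays, mouse 1 scored 36.1 on the first (21% of the variance) and mouse 2 scored 32.1 on the second (16.4%), whereas the other 9 ran from -12 to 4.8 on the first and from -9.1 to 2 on the second. Correlations within a group were 0.986 to 0.99 in exposed Wt and 0.978 to 0.989 in exposed Xpc-/- mice. Without both arrays the number of probes with an unadjusted limma p under 0.05 was 592 in place of 904. Among the unexposed, Xpc-/- control 1 and 2 stood apart (38.4 and 40.5 on the first component of all 20 arrays, the other arrays at most 8.1).

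**Figure D1:**
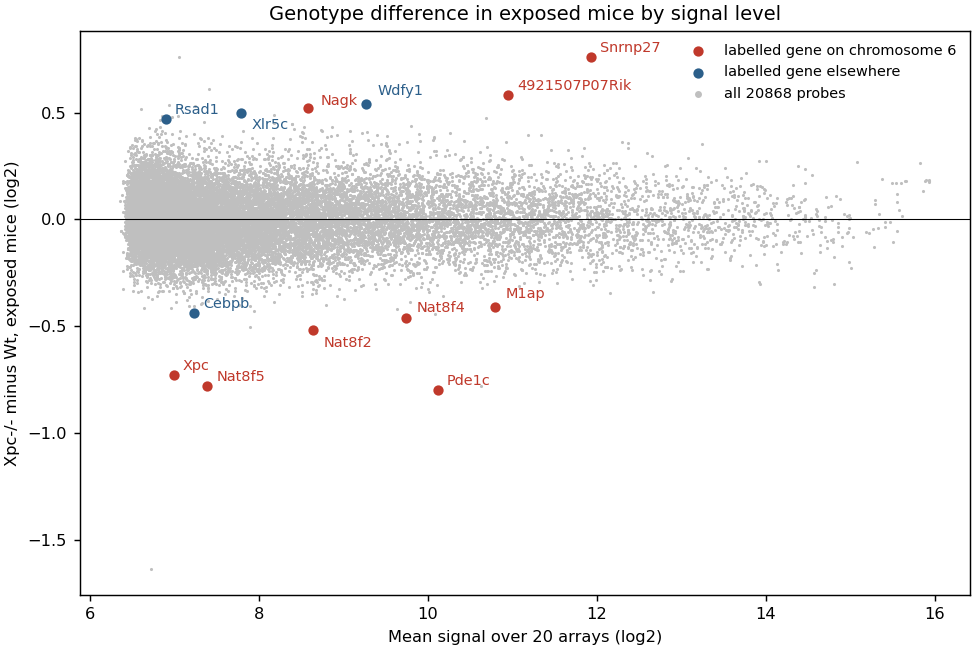
Difference between exposed Xpc-/- and exposed Wt mice (vertical axis, log2) against the mean signal over all 20 arrays (horizontal axis, log2), with 1 grey point for each of the 20868 probes. Snrnp27 at 0.76 lies at the top, labelled genes of chromosome 6 (red) include Xpc, Nat8f5 and Pde1c at the lower edge, and the lowest point, at -1.64, is Onecut3, which rests on 1 value of -0.35 in 1 mouse.

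The promoter sequences of Snrnp27 and of 3 neighbouring genes of the N-acetyltransferase 8 family are shown first, since these 4 genes lie together near Xpc and were among those that followed genotype most closely. They are the 250 bases before the first base of the transcript, from RefSeq on GRCm38.p6, read in the direction of the gene, with capitals for any match on either strand to CCAAT, to GCGTG (the core that the aryl hydrocarbon receptor binds), to TATAAA or to TGACGTCA (the full cAMP response element).
Snrnp27 (chr6:86684492-86684741, minus strand): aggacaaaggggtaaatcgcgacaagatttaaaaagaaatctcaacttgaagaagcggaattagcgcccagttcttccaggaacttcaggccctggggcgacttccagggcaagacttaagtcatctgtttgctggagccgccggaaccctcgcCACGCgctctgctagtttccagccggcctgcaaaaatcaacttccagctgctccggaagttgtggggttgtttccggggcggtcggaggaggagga
Nat8f2 (chr6:85869138-85869387, minus strand): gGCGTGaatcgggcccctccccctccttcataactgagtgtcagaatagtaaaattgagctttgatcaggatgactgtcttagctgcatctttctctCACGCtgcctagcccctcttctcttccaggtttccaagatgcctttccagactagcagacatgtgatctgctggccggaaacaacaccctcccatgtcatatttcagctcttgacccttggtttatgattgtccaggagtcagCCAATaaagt
Nat8f4 (chr6:85904939-85905188, minus strand): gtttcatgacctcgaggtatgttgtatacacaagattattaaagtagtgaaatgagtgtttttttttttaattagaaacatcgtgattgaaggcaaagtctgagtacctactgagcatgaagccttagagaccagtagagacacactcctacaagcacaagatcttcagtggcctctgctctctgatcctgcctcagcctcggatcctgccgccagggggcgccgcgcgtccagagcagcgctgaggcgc
Nat8f5 (chr6:85820973-85821222, minus strand): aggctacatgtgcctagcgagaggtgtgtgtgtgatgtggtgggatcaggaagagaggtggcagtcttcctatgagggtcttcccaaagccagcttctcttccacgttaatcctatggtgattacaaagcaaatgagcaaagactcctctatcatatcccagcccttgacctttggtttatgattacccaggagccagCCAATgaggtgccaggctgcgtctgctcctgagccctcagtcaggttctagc
The RefSeq table gives Nat8f4 a second start, which is not shown. GCGTG or its reverse complement occurred once in the Snrnp27 window, 2 times in that of Nat8f2 and not in those of Nat8f4 and Nat8f5, while 28.2% of all 32851 promoter windows of this length held it. CCAAT occurred once each in the windows of Nat8f2 and Nat8f5 and in 33.8% of all windows. TATAAA was in 12.4% and TGACGTCA in 1.55% of all windows, and neither was in the 4 windows shown.

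Snrnp27 was higher in every exposed Xpc-/- mouse than in any exposed Wt mouse. Its log2 signal was 11.52, 11.81, 11.53, 11.76 and 11.92 in the 5 exposed Wt mice and 12.6, 12.46, 12.42, 12.73 and 12.11 in the 5 exposed Xpc-/- mice. The lowest Xpc-/- value belonged to mouse 5 and still lay above the highest Wt value. The difference was 0.76 (SE 0.11, 95% interval 0.53 to 0.99, 1.69-fold), with a limma adjusted p of 0.00375. The call was lost when Xpc-/- B[a]P 1 and 2, the arrays farthest from the rest, were left out together: the difference was then 0.72 with a limma adjusted p of 0.108. In unexposed mice the probe differed in the same direction, at 11.46, 11.42, 11.48, 11.38 and 11.54 in Wt and 12.0, 12.31, 12.04, 12.12 and 11.92 in Xpc-/- mice. That difference was 0.62 (SE 0.11), again with no overlap, and the test of the change with B[a]P gave an unadjusted limma p of 0.381.

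Xpc itself, the gene whose loss defines the genotype, came next by p. Its signal was 7.24, 7.14, 7.62, 7.32 and 7.13 in exposed Wt mice and 6.3, 6.62, 6.42, 6.84 and 6.63 in exposed Xpc-/- mice. All 5 Xpc-/- values lay below all 5 Wt values, so the probe did not go against any label. The difference was -0.73 (SE 0.13, interval -1.0 to -0.46), a ratio of 0.603. It missed the threshold across all probes (limma adjusted p 0.0656), and an exact permutation test over the 10 mice, two-sided, gave p = 0.00794, the smallest that splits of 10 mice into 5 and 5 allow. With only the 10 exposed arrays in the fit, 4 probes passed: Snrnp27, Xpc, Nat8f5 and Pde1c. The Xpc probe had a mean log2 signal of 6.99 over the 20 arrays, and its position relative to the disrupted part of the gene was not known.

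**Figure D2:**
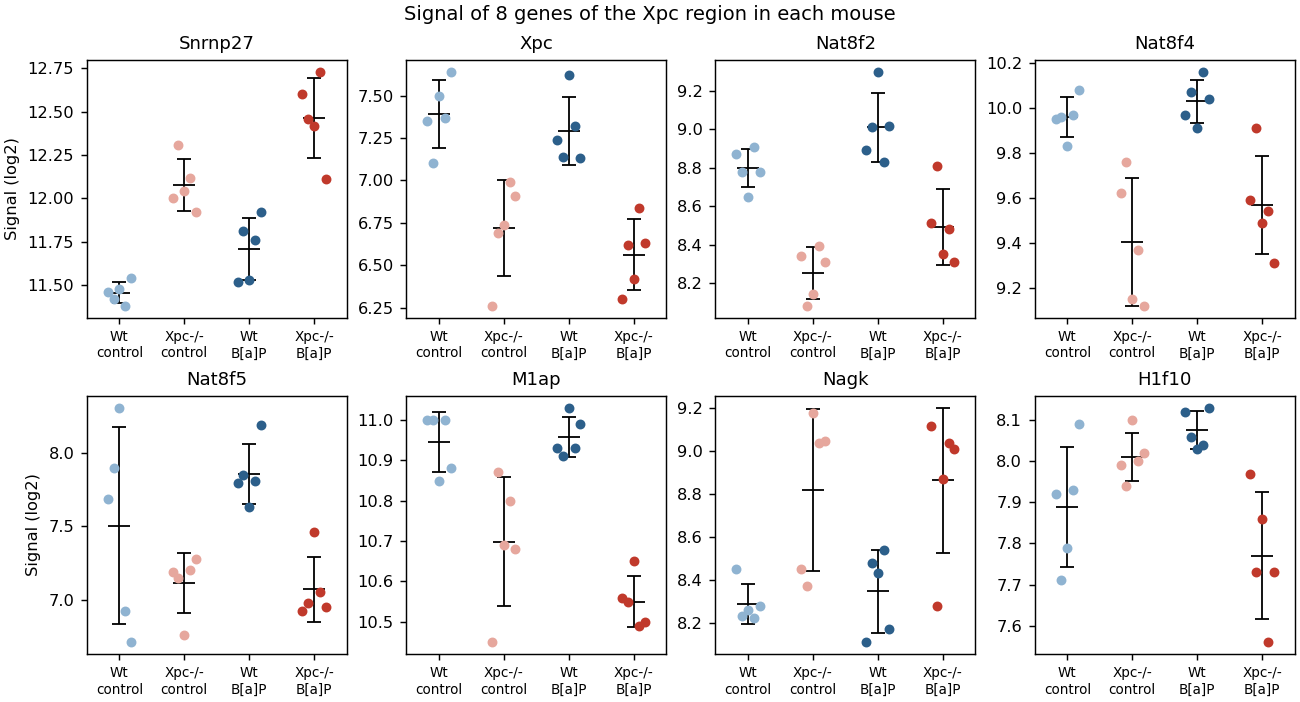
Log2 signal (vertical axis) of 8 genes of chromosome 6 in each of the 20 mice, by group, with the mean and SD of 5 mice in black. In Snrnp27, Xpc, Nat8f2, Nat8f5, M1ap and H1f10 the exposed Xpc-/- mice (dark red) do not overlap the exposed Wt mice (dark blue), in Nagk 1 Xpc-/- mouse at 8.28 lies among the Wt mice, and the vertical axes differ between panels and do not start at 0.

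The N-acetyltransferase 8 family, a tandem group of genes close to Snrnp27 whose known products are acetyltransferases of the endoplasmic reticulum, had lower values in Xpc-/- mice in 3 genes. Of 6 members measured, 3 had an unadjusted limma p under 0.05, all lower, beside 2.12% higher and 2.11% lower among all 16962 named genes, and the family median was -0.35. No member passed the adjusted threshold. The members are similar in sequence, and whether a probe also binds a related transcript was not tested.

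Nat8f2 read 8.89, 9.01, 9.3, 8.83 and 9.02 in exposed Wt mice and 8.51, 8.81, 8.35, 8.48 and 8.31 in exposed Xpc-/- mice. Its highest Xpc-/- value, in mouse 2, lay just below the lowest Wt value. The difference was -0.52 (SE 0.11, limma adjusted p 0.369), and it was -0.55 in unexposed mice. Nat8f4 read 9.97, 10.07, 9.91, 10.16 and 10.04 in Wt and 9.59, 9.91, 9.49, 9.54 and 9.31 in Xpc-/- mice, a difference of -0.46 (SE 0.12). Here too mouse 2 was the Xpc-/- mouse nearest to Wt, and both groups met at 9.91 to 2 decimals. Nat8f5 read 7.8, 7.85, 7.63, 7.81 and 8.19 in Wt and 6.92, 6.98, 7.46, 7.05 and 6.95 in Xpc-/- mice. Its difference of -0.78 (SE 0.2) was the largest of any named gene without overlap, and mouse 3 stood apart from the other 4 Xpc-/- mice.

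The other members of the family gave no such separation. Nat8 differed by -0.23 (interval -0.61 to 0.15), Nat8f1 by -0.04 (-0.35 to 0.28) and Nat8f3 by 0.12 (-0.11 to 0.35). In the unexposed mice Nat8f5 varied widely within a genotype, with Wt values of 7.69, 7.9, 8.31, 6.92 and 6.71. The low unexposed Wt mice, 4 and 5, were also the low ones for Nat8 at 7.8 and 7.77. The mean of 12 Leydig cell markers, relative to the exposed Wt mean, was also low in them, at -0.53 and -0.63 beside -0.02, -0.04 and 0.45 in unexposed Wt mice 1 to 3. In exposed Xpc-/- mice the same mean was -0.15, -0.25, 0.11, -0.16 and 0.03, so that mouse 3, the highest for Nat8f5, was also the highest here. The part of Leydig cells in the Nat8f5 values was not tested. No such split was seen in the exposed Wt mice, whose Nat8f5 values ran from 7.63 to 8.19.

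The region around Xpc held several more genes that followed genotype. Within 20 Mb of Xpc in the reference gene order, 217 genes besides Xpc were measured. Of these, 14 (6.45%) had an unadjusted limma p under 0.05, 5 higher and 9 lower, and 7 (3.23%) did not overlap between the exposed groups. On the other chromosomes the shares were 4.08% and 0.692% of 15888 genes. The rest of chromosome 6 had 6.21% of 709 genes at p under 0.05 and 0.705% without overlap. Of the 14 genes, 12 lay before Xpc in the order, where 173 of the 217 genes are, and 8 also had p under 0.05 in unexposed mice. Over whole chromosomes, chromosome 6 had the highest share (59 of 927 genes, 6.36%, beside 5.06% on chromosome 4), and it held 7 of the 13 named probes with p under 0.001.

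**Figure D3:**
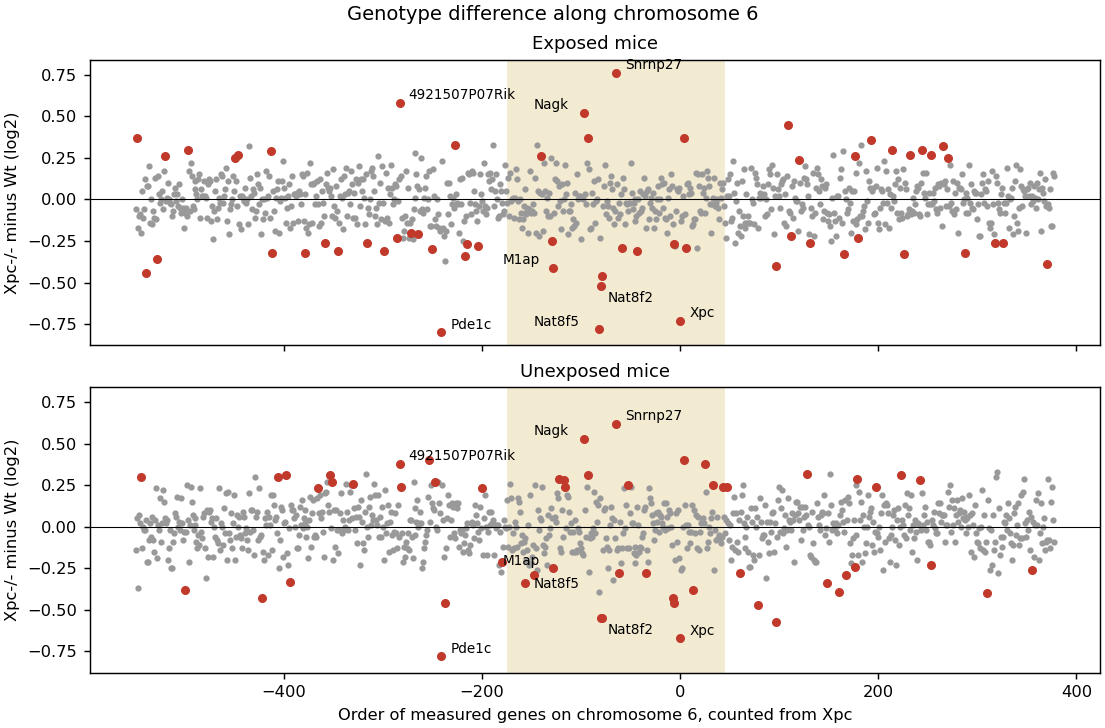
Difference between Xpc-/- and Wt mice (vertical axis, log2) for 927 genes of chromosome 6 in their order from Xpc at 0 (horizontal axis, number of measured genes), in exposed mice above and unexposed mice below. Red points have an unadjusted limma p under 0.05 and the shaded band holds the genes within 20 Mb of Xpc. Snrnp27, Nagk, Nat8f2, Nat8f5 and Xpc keep their side of 0 in both panels.

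M1ap, which encodes a protein of meiosis needed for spermatogenesis, had the smallest SE of the named genes of the window. It read 10.93, 10.91, 11.03, 10.93 and 10.99 in exposed Wt mice and 10.56, 10.55, 10.65, 10.49 and 10.5 in exposed Xpc-/- mice. The groups were separated by more than either group's range. The difference was -0.41 (SE 0.09, limma adjusted p 0.539). In unexposed mice it was -0.25 (SE 0.09), where the Xpc-/- values ran from 10.45 to 10.87 and the lowest Wt value was 10.85.

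Nagk, the kinase that salvages N-acetylglucosamine, read 8.11, 8.48, 8.43, 8.54 and 8.17 in exposed Wt and 9.12, 8.28, 8.87, 9.04 and 9.01 in exposed Xpc-/- mice. Mouse 2, whose array stood apart as did that of mouse 1, was thus at the Wt level and the other 4 were clearly above it. Among unexposed Xpc-/- mice, 1 and 2, the arrays that stood apart, had Wt levels (8.45 and 8.37). Mice 3, 4 and 5 were high (9.18, 9.04 and 9.05). The difference was 0.52 (SE 0.15) with B[a]P and 0.53 (SE 0.15) without. Pde1c, a calmodulin-dependent phosphodiesterase on chromosome 6 but outside the window, also had 1 mouse among the other genotype. It read 10.68, 10.68, 10.91, 10.66 and 9.92 in exposed Wt and 9.73, 9.37, 9.86, 10.28 and 9.62 in exposed Xpc-/- mice, so that Wt mouse 5 lay within the Xpc-/- range. Its difference was -0.80 (SE 0.22), and -0.78 in unexposed mice.

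Of the other genes near Xpc, some had smaller or opposite differences without B[a]P, whereas Nup210 and 4930590J08Rik did not. H1f10, a linker histone, read 8.12, 8.06, 8.03, 8.04 and 8.13 in exposed Wt and 7.97, 7.73, 7.86, 7.56 and 7.73 in exposed Xpc-/- mice, a difference of -0.31 (SE 0.1). It was 0.12 in unexposed mice, and the test of this change gave an unadjusted limma p of 0.0042, which did not pass the adjustment. Nr2c2, an orphan nuclear receptor strongly expressed in testis, differed by -0.29 (SE 0.11) with B[a]P and by 0.01 without. Its exposed Xpc-/- values ran from 7.07 to 7.48 and its exposed Wt values from 7.47 to 7.73, so the groups met. Nup210, a membrane protein of the nuclear pore, differed by -0.27 with and -0.46 without B[a]P, and 4930590J08Rik by 0.37 and 0.4. Gfpt1, the first enzyme of the hexosamine pathway, differed by -0.29 on its brighter probe (-0.13 in unexposed mice) and by -0.03 on the other. Exoc6b, a subunit of the exocyst, differed by 0.37 on its brighter probe (0.31 in unexposed mice) and by 0.07 on the dimmer.

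Beyond the region, the largest differences without overlap were spread over many chromosomes. No gene beyond the region passed the adjustment. Over the whole array, the region included, the direct count of probes without overlap was close to that in unexposed mice (154 probes, 0.738%). Among the 12 named genes with the largest positive difference, 2 lay on chromosome 6 (Snrnp27 and 4921507P07Rik) and 5 were dim, which here means among the 5217 probes of lowest mean signal (6.36 to 6.91). Among the 12 with the largest negative difference, 5 lay on chromosome 6 (Nat8f5, Xpc, Nat8f2, Nat8f4 and M1ap) and 1 was dim. They were chosen by size among the named genes with an unadjusted p under 0.05 and no overlap, so their size is a description.

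4921507P07Rik, a chromosome 6 gene with no role assigned here, read 10.95, 10.87, 10.41, 10.83 and 10.93 in exposed Wt and 11.53, 11.95, 11.12, 10.98 and 11.33 in exposed Xpc-/- mice (difference 0.58, SE 0.16). Tmem205, a membrane protein, differed by 0.40 (SE 0.14), and by 0.42 in unexposed mice. Its unexposed Xpc-/- mice 1 and 2, the arrays that stood apart, were both at 12.08, whereas mice 3, 4 and 5 ran from 11.16 to 11.32. Prkaa1, a catalytic subunit of the AMP-activated kinase, differed by 0.39 (SE 0.12), from 7.04 to 7.54 in Wt and from 7.62 to 7.91 in Xpc-/- mice. Spic, a transcription factor of the ETS family known in red pulp macrophages, differed by 0.47 (SE 0.13), and the excess lay mostly in Xpc-/- mice 1 and 2 (7.74 and 7.41, the others 6.82 to 6.96). The remaining higher genes were 3300002A11Rik, Xlr5c, Rsad1, Olfr1157, Pld2, Pcdhgb4 and Olfr1354, with differences from 0.38 to 0.53.

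Of the lower genes outside chromosome 6, Cebpb, a transcription factor of acute and metabolic responses, read 7.61, 7.44, 7.4, 7.37 and 7.25 in exposed Wt and 6.56, 6.75, 7.17, 7.15 and 7.24 in exposed Xpc-/- mice. The groups nearly met at mouse 5 of each, and Xpc-/- mice 1 and 2 were lowest. The difference was -0.44 (SE 0.16). Oat, ornithine aminotransferase, differed by -0.39 (SE 0.12), with Wt values of 9.87 to 10.23 and Xpc-/- values of 9.46 to 9.77. Macir differed by -0.43 (SE 0.12) and by -0.31 in unexposed mice. Zdhhc17, a palmitoyltransferase, differed by -0.40 (SE 0.12) and by 0.11 in unexposed mice. Tmem64, Kcnj15 and Ddah1 differed by -0.38, -0.36 and -0.35, and a second Ddah1 probe differed by -0.09. In Zdhhc17, Tmem64 and Ddah1 the lowest value belonged to Xpc-/- mouse 1.

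Beside Snrnp27, Xpc and Nat8f5, 5 of the 20868 probes differed by more than 1.5-fold, and they are named here because of that size. Pde1c is described above. The unnamed probe A_51_P249255 read 10.78, 11.07, 11.31, 11.67 and 11.82 in exposed Wt and 10.32, 10.25, 11.97, 9.95 and 10.29 in exposed Xpc-/- mice, where mouse 3 was the highest of all 10 and the other 4 were below every Wt mouse. Its difference was -0.78 (SE 0.24, limma adjusted p 0.987), and it passed the adjusted threshold once Xpc-/- mouse 3 was left out. That removes the value that went against the difference, so the pass is a description. In Fam83d the difference of 0.76 came with 9.63 in Xpc-/- mouse 2 and 6.92 to 7.29 in the other 4. In Olfr1299 mouse 2 was at 10.76 and the other Xpc-/- mice at 7.02 to 7.36. Onecut3 differed by -1.64 (SE 0.77), which rests on a value of -0.35 in Xpc-/- mouse 1, with 6.5 to 7.32 in the other 4 Xpc-/- mice. The mean signal of every probe was at least 6.36, and whether that spot had failed was not tested.

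The test of whether the genotype difference changed with B[a]P gave 0 probes at the limma adjusted threshold, with 649 (3.11%) at an unadjusted p under 0.05 and a smallest adjusted p of 0.999. The same count for the genotype difference in unexposed mice was 0, with 926 probes (4.44%) at an unadjusted p under 0.05 and a smallest adjusted p of 0.123. Of the 24 named genes with the largest differences without overlap, 20 had the same sign in unexposed mice, and 7 of the 12 higher and 3 of the 12 lower ones had an unadjusted interaction p under 0.05. They were chosen by the exposed difference, which is part of the interaction, so these counts are a description. Xlr5c, an X-linked gene of a lymphocyte-regulated family with testis expression, had the smallest interaction p of any named gene (unadjusted 0.000457). It differed by 0.50 in exposed and by -0.20 in unexposed mice, and its exposed Xpc-/- values of 7.93 to 8.49 lay just above the exposed Wt values of 7.26 to 7.9. The next genes by this p were Clec9a, Cnot9, Bfar, Zc3h12a and Ptpn6, and each had opposite signs in exposed and unexposed mice. A small interaction p picks genes whose exposed and unexposed differences lie far apart, so these signs are a description too. For Bfar, an apoptosis regulator of the endoplasmic reticulum, the differences were 0.39 and -0.17 on the brighter probe, and -0.01 and 0.13 on the dimmer. For Ptpn6, a tyrosine phosphatase of blood cells, they were 0.26 and -0.24, and for Cnot9, part of the CCR4-NOT complex that shortens mRNA tails, they were -0.23 and 0.31.

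**Figure D4:**
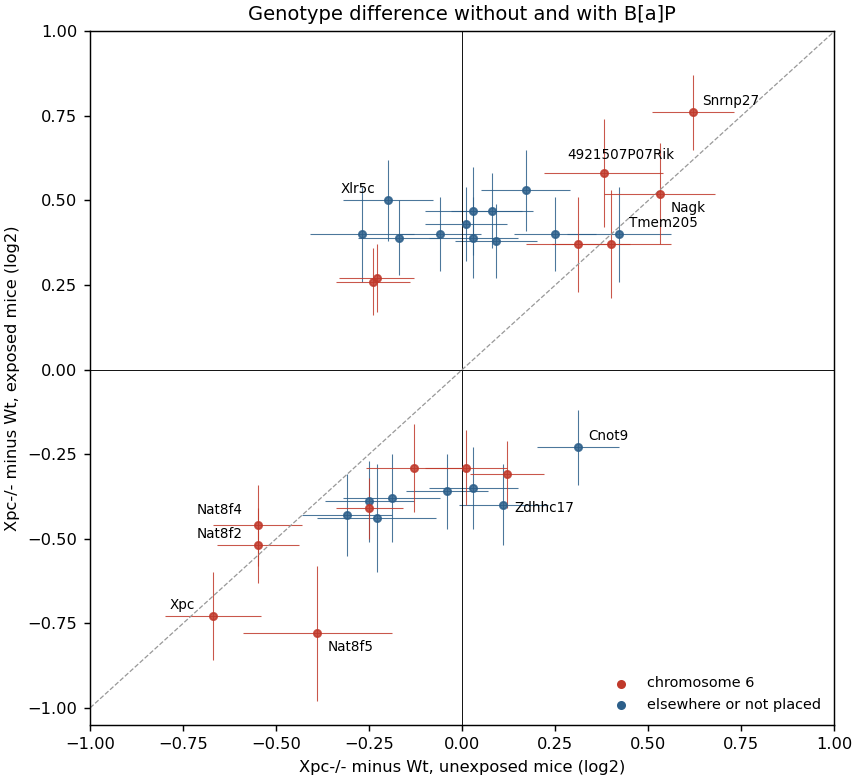
Genotype difference (Xpc-/- minus Wt, log2) in exposed mice (vertical axis) against that in unexposed mice (horizontal axis) for the genes with the largest differences, the genes near Xpc and those with the smallest interaction p, with bars of 1 SE. Snrnp27, Nagk, Xpc, Nat8f2 and Nat8f4 lie near the dashed line of equal differences, and Xlr5c and Cnot9 lie on opposite sides of 0 in the 2 comparisons.

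Nucleotide excision repair, the process that lacks its damage sensor in these mice, had no detectable difference in its other transcripts at the precision of these arrays. Of 48 genes of damage recognition, TFIIH, incision, gap filling and transcription-coupled repair, 0 had an unadjusted limma p under 0.05 once Xpc was set aside, beside 4.23% of all named genes. Their differences ran from -0.2 (Uvssa) to 0.29 (Tcea1), with a median of -0.016 beside -0.004 over all named genes. In 45 of the 48 the 95% interval excluded a change of 1.5-fold. The partners of XPC were close to 0: Rad23b differed by 0.07 (interval -0.18 to 0.33) and Cetn2 by 0.06 (-0.2 to 0.31). Ddb2, which recognises damage in chromatin and is a p53 target, differed by 0.11 (-0.12 to 0.34). The same held for Xpa, at 0.14 (-0.15 to 0.44), and for Ercc1 of the nuclease at the 5′ side, at 0.11 (-0.22 to 0.44).

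Translesion synthesis, in which specialised polymerases copy past adducts, had 0 of 15 genes at an unadjusted p under 0.05. At the 4.23% of all named genes, lists of this size hold few such genes or none, so the counts of this and the next 3 lists are not a result about their members. Polk, the polymerase that bypasses B[a]P adducts, read 7.36, 7.29, 7.51, 7.57 and 7.51 in exposed Wt and 7.22, 7.67, 7.33, 7.57 and 7.55 in exposed Xpc-/- mice. All Wt values lay within the range of the Xpc-/- values. The difference was 0.02 (SE 0.12, interval -0.22 to 0.26, exact permutation p 0.825, two-sided). The study reported higher Polk in exposed Xpc-/- mice only after it allowed for a slight difference between unexposed mice. No such correction was made in this value, so it does not test that result. Double strand break repair had 0 of 25 genes at this threshold. In damage signalling 1 of 16 passed it, Chek2, a checkpoint kinase, at 0.31 (SE 0.12), on a dim probe. In base excision and mismatch repair it was 1 of 19, Mlh3, an endonuclease of meiotic crossing over, at 0.38 on its brighter probe and -0.23 on the dimmer.

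The p53 and apoptosis lists had 0 of 58 genes at an unadjusted limma p under 0.05 (4.23% of all named genes) and a median of 0.014. Gadd45a, a stress-induced p53 target, came closest at 0.33 (interval reaching 0.66, unadjusted p 0.0525). Its exposed Wt values ran from 7.58 to 8.15 and its Xpc-/- values from 7.89 to 8.62. Cdkn1a, the p53-induced inhibitor of cyclin-dependent kinases, differed by 0.09 (-0.11 to 0.3) and Mdm2, the ligase that degrades p53, by 0.18 (-0.1 to 0.45). Of the 94 genes of the G1-S and G2-M lists, 4 (4.26%) were lower at an unadjusted p under 0.05 and 0 higher, beside 2.11% lower and 2.12% higher over all named genes, and the median was -0.024. They were Kif4, a chromosome-associated kinesin (-0.33), Ccnd2, a D-type cyclin (-0.33), and the mitotic entry regulators Wee1 (-0.28) and Cdc25b (-0.23). In Kif4 and Ccnd2 the lowest value, 7.03 and 6.78, was that of Xpc-/- mouse 1. The cell cycle genes that the study followed by PCR gave 0.04 for Cit, 0.1 for Ect2, -0.02 for Psip1 and 0.07 for Asf1b, each with an SE of 0.11 or 0.12 and overlapping groups. The study compared ratios of exposed to control mice between genotypes. That measure differs from the level difference between exposed mice given here, so these values do not test it.

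The aryl hydrocarbon receptor list had 13 measured genes, 1 higher and 1 lower at an unadjusted limma p under 0.05, beside 2.12% higher and 2.11% lower over all named genes. Cyp1a1, the classical target and an enzyme of B[a]P activation, read 6.41, 6.4, 6.32, 6.3 and 6.51 in exposed Wt and 6.93, 6.61, 6.53, 6.53 and 6.59 in exposed Xpc-/- mice. The groups did not overlap, but the probe is dim and mouse 1 is the one clearly above the rest. The difference was 0.25 (SE 0.1, adjusted p over 0.05 as for all genes but Snrnp27). Ahrr, the repressor of the receptor, differed by -0.24 (SE 0.11), also on a dim probe, and Cyp1b1 by 0.04 (-0.2 to 0.28). Of 292 dim probes with an unadjusted p under 0.05, 193 were higher in Xpc-/- mice. In the next 3 groups of 5217 probes by signal the numbers were 105 of 256, 88 of 194 and, in the brightest, 77 of 162.

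The remaining pathway lists also lay close to 0. In the spliceosome list Snrnp27 was the exception, since 44 other genes had a median of 0.02 and ran from -0.26 (Lsm4) to 0.23 (Lsm5). Chromatin remodelling had 0 of 31 genes at an unadjusted limma p under 0.05, which 4.23% of all named genes had. The chaperones had 2 of 26, Hsp90aa1 at 0.26 and Hsph1 at 0.31, both higher. The Hsp90aa1 probe read 15.41 to 15.97 in Wt and 15.79 to 15.98 in Xpc-/- mice, close to 16, the ceiling of the scanner. Oxidative stress defence had 1 higher and 1 lower of 23, the lower being Hmox1, heme oxygenase (-0.2, SE 0.1).

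**Figure D5:**
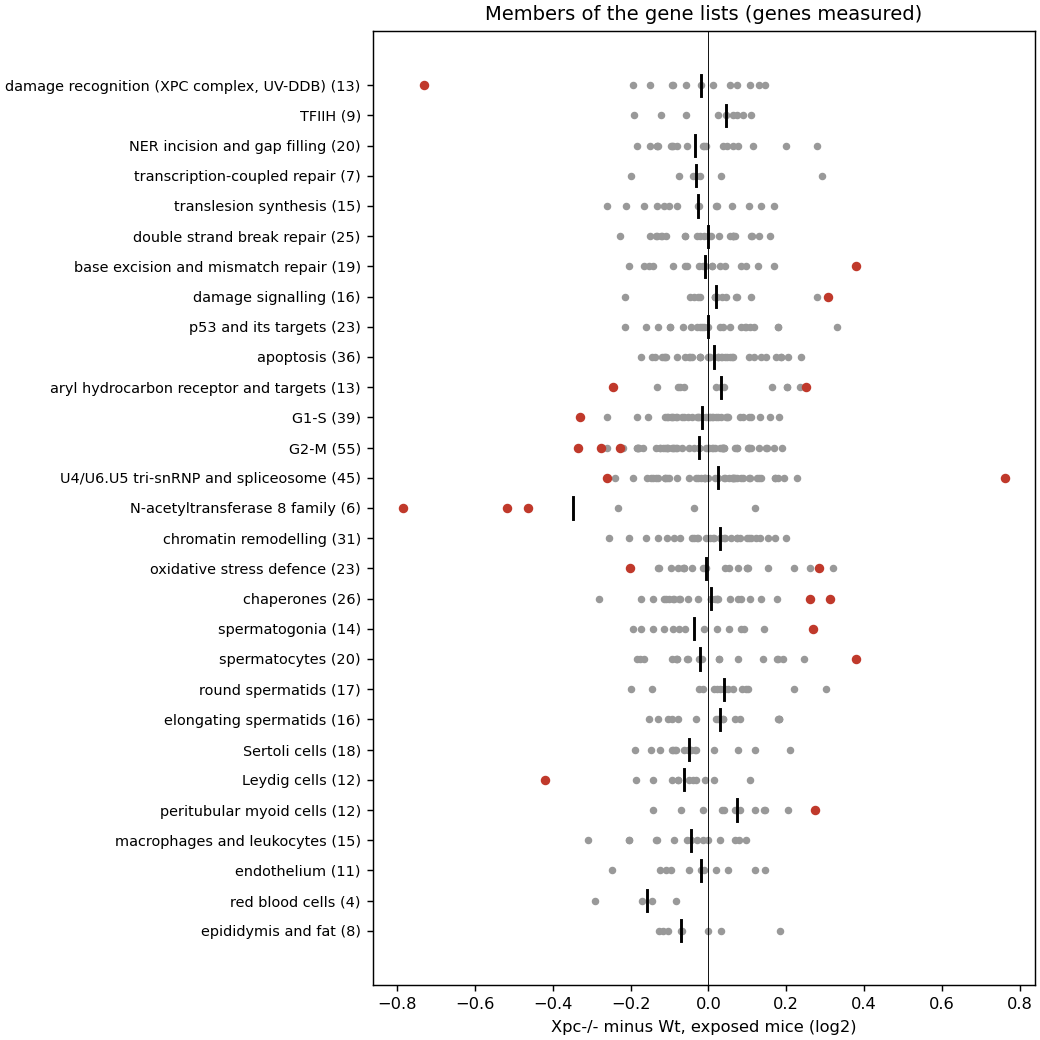
Difference between exposed Xpc-/- and exposed Wt mice (horizontal axis, log2) for each measured member of 29 gene lists, 1 point for each gene and a black line at the list median, with red points for an unadjusted limma p under 0.05. Most medians lie close to 0, and the N-acetyltransferase 8 family lies at -0.35.

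No marker of a testis cell type passed the adjusted threshold. Over 147 marker genes of 11 cell types, 3 were higher and 1 lower at an unadjusted limma p under 0.05 (2.72%, beside 4.23% of all named genes), and the median was -0.025. Differences were positive for 6 of 14 spermatogonial, 9 of 20 spermatocyte, 13 of 17 round spermatid and 10 of 16 elongating spermatid markers. They were positive for 4 of 18 Sertoli, 2 of 12 Leydig and 9 of 12 peritubular myoid markers. For macrophages and leukocytes it was 4 of 15 and for endothelium 4 of 11. For red blood cells it was 0 of 4 and for epididymis and fat 2 of 8, with no test of these counts. The 67 germ cell markers had a median of 0.024, and their lists had medians from -0.037 (spermatogonia) to 0.041 (round spermatids). The 80 somatic and blood markers had one of -0.048, with list medians from -0.158 (red blood cells) to 0.074 (peritubular myoid cells). The protamine genes Prm1 and Prm2 and the germ cell lactate dehydrogenase Ldhc each differed by 0.18, with no value under 15.33 in the 20 mice, which is at the top of the range. Tnp1 and the brightest Odf2 probe (mean 15.89), both elongating spermatid markers, also differed by 0.18. The dimmer Odf2 probes differed by -0.07 and -0.1. Signals near the scanner ceiling are compressed, so these equal differences are not read as separate results. The germ cell counts and medians above include them. Gfra1, a receptor of spermatogonial stem cells, differed by 0.27 and Des, desmin of smooth muscle, by 0.27, both on dim probes. Sertoli cell markers had 0 of 18 past the unadjusted threshold and a median of -0.051. Macrophage and leukocyte markers had 0 of 15, with a median of -0.044 and C1qa, a complement subunit, lowest at -0.31.

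Leydig cell markers, which report the steroid-making cells between the tubules, had 1 of 12. Hsd3b1, an enzyme of testosterone synthesis, read 9.89, 9.42, 9.82, 9.78 and 10.21 in exposed Wt and 9.1, 9.11, 9.7, 9.21 and 9.89 in exposed Xpc-/- mice. Xpc-/- mice 1, 2 and 4 lay below the Wt range and 3 and 5 within it. The difference was -0.42 (SE 0.17), and Star, which brings cholesterol into the mitochondrion, differed by -0.08 (interval -0.63 to 0.47). The mean of the Leydig list, relative to the exposed Wt mean, ran from -0.09 to 0.07 in Wt and from -0.25 to 0.11 in Xpc-/- mice. All 4 red blood cell genes measured had negative differences, with a median of -0.158, and their mean ran from -0.11 to 0.24 in Wt and from -0.36 to 0.07 in Xpc-/- mice, which overlap. The part of blood or Leydig RNA in any single difference was not tested.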

How the data were processed

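Agilent 22K Mouse arrays carried each sample in Cy5 against the Cy3 reference pool, per the labels. The deposited values are natural log signals: the authors measured spots with Imagene and deposited 1 value per probe and array, in which repeated spots are pooled, the Cy3 reference has been allowed for and all scans share 1 distribution through quantile normalization. A subtraction of local background and a genome build are not given in the sources used here. After quantile normalization a shift of most genes cannot be seen, and signals near the scanner ceiling are compressed.

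Dividing by the natural log of 2 gave log2 values, and all probes were kept. A gene symbol is given for 18303 of 20868 probes (2565 have none, 0 several). Current names came by Entrez ID from a GRCm38.p6 gene table (18134 probes matched), which otherwise served only for chromosomes and neighbours. The brightest probe stands for a gene in lists (16962 symbols).

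The 4 group means were fitted over all 20 arrays with limma 3.58.1 in R 4.3.3, and contrasts were adjusted by Benjamini-Hochberg over all probes at 0.05. The fit was tested on simulated data with independent noise for each probe. Deviations of a whole array, as in the arrays that stood apart, were not simulated. The study's methods name a two-way analysis of variance. Its model was run as an alternative, with ordinary variances for each probe and the same contrasts. The main effect of genotype over all 20 mice was not tested. Labels give 5 mice a group, and the number of arrays limits the precision. Xpc, Polk and Snrnp27 were tested by exact permutation over all splits of the exposed mice. Snrnp27 had the same exact permutation p as Xpc (0.00794, two-sided). It was also the single call in these mice, so this p is no separate support. Samples with the same number were not paired (correlations from -0.099 to 0.059 among exposed mice).

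Named are Xpc, probes past the threshold and the 4 next by p, the 12 genes with the largest difference each way without overlap, up to 12 genes within 20 Mb of Xpc, genes the study names, up to 4 members of each list and defining ones, and the 6 smallest interaction p-values. Pde1c, Nup210 and the other probes past 1.5-fold were named after their values were seen. Members and lists were chosen with earlier results of these data known. Alternatives were other variance models, array weights, a filter on dim probes, normalizations, averaged probes, the replicate block, the exposed arrays alone and arrays left out.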

Additional observations from a re-analysis of the deposited data

Results flagged for a closer look

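Among 80 groups of 5 exposed mice that were examined for the named genes, 6 held a mouse far from the other 4, with a gap to its nearest neighbour above 0.71 of the whole range, and chance gives such a mouse in about 1 in 20 groups. In exposed Xpc-/- mice, mouse 3 had a Nat8f5 signal of 7.46 where the others ran from 6.92 to 7.05. Mouse 1 had a Ddah1 signal of 6.72 where the others ran from 7.39 to 7.54. In exposed Wt mice, mouse 2 was high for Zdhhc17 (7.53, the others 7.27 to 7.32) and low for 3300002A11Rik (6.2, the others 6.68 to 6.87). Mouse 3 was low for 4921507P07Rik (10.41, the others 10.83 to 10.95). Mouse 5 was high for Asf1b (10.63, the others 10.27 to 10.35). The groups examined did not take in every gene named in this report, so 6 is not a count over all of them. Pde1c in exposed Wt mice was not among them. Nor were Cyp1a1, A_51_P249255, Fam83d, Olfr1299 and Onecut3 in exposed Xpc-/- mice. In each of these 1 mouse also lay that far from the other 4.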

How the results depend on the processing

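The single call in exposed mice, Snrnp27, also passed under every alternative run except 1: without Xpc-/- B[a]P 1 and 2 together, an alternative added after seeing the data, the count was 0. The count was 2 with array weights, 2 with an intensity trend and robust variances, 3 without Xpc-/- control 1 and 2, and 4 with the 10 exposed arrays alone. With the replicate block it was 2 (Snrnp27 and Xpc), and 5 with the exposed arrays alone and the replicate block, although the numbers did not pair the mice. Leaving out 1 mouse at a time gave 1 to 2 calls. In unexposed mice the count of 0 became 9 with array weights, 3 without Xpc-/- control 1 and 2, and 0 to 1 with 1 mouse left out. The interaction count of 0 became 1 without Xpc-/- B[a]P 3, and was 0 to 1 over all mice left out. The causes were not tested.

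Of 1271 values of 40 named genes under alternatives, 1248 kept their direction and side of the threshold, 10 passed it only there, 1 lost it and 12 turned sign, all of differences near 0. Psip1 was 0.01 with array weights and 0.03 without Xpc-/- B[a]P 1 and 2. With 1 mouse left out, Psip1 ran from -0.07 to 0.03, Cit from -0.02 to 0.09 and Polk from -0.03 to 0.08.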
